A study of Rattus norvegicus with 18 samples.

Results

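The difference between 2 scaffolds in regenerating rat bone was followed from week 2 to week 6. The quantity of interest was the interaction of scaffold and week, that is the difference between ACPC-NP and PCL at week 6 minus the same difference at week 2, on the log2 scale. A value below 0 means that expression around ACPC-NP, relative to PCL, was lower at week 6 than it had been at week 2. The means compared came from 12 of the 18 libraries of the series, chosen by their labels, with 3 libraries in each of 4 groups.

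All groups were wild-type rats with a critical-sized defect of the radius, a gap too large to close by itself, filled with a 3D-printed scaffold. In the PCL groups the scaffold was bare polycaprolactone, a slowly degrading polyester. In the ACPC-NP groups the polycaprolactone carried nanoparticles of amorphous calcium phosphate and chitosan. Tissue within 1 mm of the implant was taken at week 2 or week 6, marrow was treated to lyse red blood cells, bone was minced, both were digested with collagenase, and the freed cells were pooled for polyadenylated RNA sequencing. Strain, sex, age and the animal behind each library are not stated in the labels. The p-values therefore measure the spread between these libraries, which may be technical in part. The pool excludes what the digestion did not free. The third scaffold of the series, PCL with calcium phosphate microparticles (CaP), is described only by values beside the others. Its libraries were part of the fit, so they entered the gene filter, the scaling and the shared spread behind every standard error and p-value.

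A bone defect heals through an early inflammatory phase, in which neutrophils and macrophages clear debris and release chemokines and cytokines, followed by matrix formation and remodelling by osteoblasts and osteoclasts. Regulatory T cells, which depend on the transcription factor Foxp3, restrain inflammation, and NK and cytotoxic T cells kill through perforin and granzymes. Marrow next to the implant also makes red cells, granulocytes and their precursors.

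The promoters of 5 genes are printed first, as examples of inflammatory, macrophage and glycolytic genes that were higher around ACPC-NP at week 2. All 5 hold a match to the motif marked in them, so they do not show how common a motif was. Those shares are given with the motif counts below. Sequences are from RefSeq on build GRCr8, 5′ to 3′ on the gene's strand, from 250 bases before to 50 bases after the start of the gene. Capitals mark matches, on either strand, to the NF-kB motif GGGNNTTTC in Cxcl1 and Il1rn, to the AP-1 motif TGANTCA in Gpnmb and Trem2, and to the core of the hypoxia response element, ACGTG, in Slc2a1. No match to another motif searched overlapped these capitals. Cxcl1 attracts neutrophils (chr14:17479272-17479571, minus strand), Il1rn is the antagonist of the interleukin 1 receptor (chr3:27520072-27520371, plus strand), Gpnmb is a lysosomal glycoprotein of macrophages and osteoclasts (chr4:79340878-79341177, plus strand), Trem2 is a lipid-sensing receptor of macrophages (chr9:20151730-20152029, minus strand), and Slc2a1 is the glucose transporter (chr5:138002272-138002571, plus strand).
Cxcl1: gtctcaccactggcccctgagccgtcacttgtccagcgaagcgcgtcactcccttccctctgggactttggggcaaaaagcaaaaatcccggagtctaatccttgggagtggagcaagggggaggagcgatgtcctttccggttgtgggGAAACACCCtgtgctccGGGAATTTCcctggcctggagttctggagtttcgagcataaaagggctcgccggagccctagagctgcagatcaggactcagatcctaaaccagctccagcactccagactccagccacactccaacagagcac
Il1rn: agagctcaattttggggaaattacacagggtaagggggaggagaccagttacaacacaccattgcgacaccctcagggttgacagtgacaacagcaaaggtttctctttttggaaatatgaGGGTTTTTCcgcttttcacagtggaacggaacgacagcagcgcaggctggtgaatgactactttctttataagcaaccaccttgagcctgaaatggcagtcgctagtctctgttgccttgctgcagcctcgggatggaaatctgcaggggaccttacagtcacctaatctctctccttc
Gpnmb: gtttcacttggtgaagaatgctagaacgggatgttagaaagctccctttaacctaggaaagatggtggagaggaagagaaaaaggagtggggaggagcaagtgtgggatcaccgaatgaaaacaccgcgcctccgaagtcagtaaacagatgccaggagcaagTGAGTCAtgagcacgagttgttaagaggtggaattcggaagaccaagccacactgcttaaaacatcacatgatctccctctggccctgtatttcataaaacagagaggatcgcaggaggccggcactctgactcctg
Trem2: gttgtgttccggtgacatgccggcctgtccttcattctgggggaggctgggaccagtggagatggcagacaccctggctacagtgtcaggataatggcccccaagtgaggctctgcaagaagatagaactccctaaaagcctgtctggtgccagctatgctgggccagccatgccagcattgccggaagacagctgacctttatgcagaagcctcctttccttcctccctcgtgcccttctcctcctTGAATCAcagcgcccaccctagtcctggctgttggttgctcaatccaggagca
Slc2a1: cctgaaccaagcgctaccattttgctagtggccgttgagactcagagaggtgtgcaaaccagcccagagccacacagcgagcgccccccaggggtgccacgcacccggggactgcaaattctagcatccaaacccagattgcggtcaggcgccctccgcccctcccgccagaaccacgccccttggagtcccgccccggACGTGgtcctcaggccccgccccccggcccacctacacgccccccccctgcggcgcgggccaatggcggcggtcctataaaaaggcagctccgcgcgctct

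Library totals ranged from 18880604 to 25622793 counts over the 12 libraries, so counting error was small except for genes of about 1 CPM (counts scaled to a common library size) or less. ACPC-NP week 2 replicate 3 stood apart from the other 17 libraries of the series, at 91.4 on the first principal component against -23.9 to 25.5. Ferritin heavy chain (Fth1) took 3.51% of its counts against 0.129 to 0.467% elsewhere. It is 1 of the 3 libraries behind every ACPC-NP level at week 2, so the results that it moves most are also given without it. In bulk samples such as these, a change in the number of cells of a type and a change in RNA per cell cannot be told apart.

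No gene passed the interaction test. EdgeR's quasi-likelihood test called 0 of 11814 genes (0%) at an adjusted p of 0.05, with a smallest adjusted p of 0.278, while 1768 genes (15.0%) had an unadjusted p under 0.05, 661 above 0 (5.60%) and 1107 below 0 (9.37%). Of all genes 54.7% had an interaction below 0 and 45.3% above, or 50.1% below 0 without ACPC-NP week 2 replicate 3. The count of calls depended on the tool and on single libraries. DESeq2 called 137 genes (1.16%), 46 above 0 (0.389%) and 91 below 0 (0.770%), and limma-voom with library quality weights called 1930 (16.3%), 967 above 0 (8.19%) and 963 below 0 (8.15%). EdgeR itself called 148 genes without ACPC-NP week 2 replicate 1 and 62 without PCL week 6 replicate 1, and 0 when any of the other 10 libraries was left out. All differences below are therefore log2 differences ± standard error from edgeR, read as descriptions of these libraries, and levels are CPM in replicates 1, 2 and 3 of a group.

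The differences at the single weeks did not pass edgeR's test either. At week 2 it called 0 genes (0%), with 1854 at an unadjusted p under 0.05, against 634 by DESeq2 (5.37%) and 281 by voom (2.38%). Leaving out ACPC-NP week 2 replicate 1 gave 877 edgeR calls, ACPC-NP week 2 replicate 2 gave 383 and PCL week 6 replicate 3 gave 1. At week 6 it called 0 genes (0%), with 2588 at an unadjusted p under 0.05, against 901 by DESeq2 (7.63%) and 4042 by voom (34.2%). Leaving out PCL week 2 replicate 2 gave 63 edgeR calls and PCL week 6 replicate 1 gave 1787.

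Most of what separated the scaffolds at week 2 was small at week 6. The 3 and 3 libraries did not overlap for 17.0% of genes at week 2 and 27.0% at week 6. At week 2, 461 genes were at least 2-fold higher around ACPC-NP with no overlap between the 3 and 3 libraries (3.90% of genes tested), and 60 were as clearly lower (0.508%). The median difference of the 461 genes was 1.59 at week 2 and 0.14 at week 6, when 298 of them were above 0 and 163 below. At week 6 the balance was the other way, with 120 genes higher (1.02%) and 244 lower (2.07%). The genes lower at week 6 had a median difference of -1.32 then and -0.40 at week 2, and the genes higher at week 6 had 1.28 then and -0.05 at week 2. Genes picked for a large difference at one week tend to show a smaller one at the other whatever happened, so these medians describe the lists and no more. Without ACPC-NP week 2 replicate 3, 248 genes were higher at week 2 (2.08%) and 118 lower (0.988%). No overlap is easier to meet with fewer libraries, so these counts are not on equal terms with 461 and 60. Across the 11814 genes the week 2 and week 6 differences, which share no library, had a Spearman correlation of 0.15 and a Pearson correlation of 0.11, or 0.29 and 0.22 without that library, given as a description since genes are not independent.

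Genes were sorted into 4 classes by these values, without a test. A reversed gene was at least 2-fold apart at both weeks in opposite directions, a faded gene was at least 2-fold apart at week 2 and under 0.5 on the log2 scale at week 6, a kept gene was at least 2-fold apart at both weeks in the same direction, and an appeared gene was under 0.5 at week 2 and at least 2-fold apart at week 6. A large difference also required groups that did not overlap, and a small one groups that did. There were 10 reversed genes (0.0846%), 364 faded (3.08%), 23 kept (0.195%) and 163 appeared (1.38%). Of the faded genes 341 had been higher around ACPC-NP at week 2 and 23 lower. Without ACPC-NP week 2 replicate 3 there were 10 reversed genes (0.0837%), 7 of them shared, and 186 faded genes (1.56%), 146 of them shared, with 36 kept (0.301%) and 177 appeared (1.48%). The number reversed was 24 without ACPC-NP week 2 replicate 1, 35 without ACPC-NP week 6 replicate 3 and 38 without PCL week 2 replicate 2, and the number faded was 644 without ACPC-NP week 2 replicate 1 and 228 without PCL week 6 replicate 1. Appeared genes numbered 562 without ACPC-NP week 6 replicate 3 and 469 without PCL week 6 replicate 1. With a library left out, no overlap is easier to meet and overlap harder. Class counts with and without a library are therefore not on equal terms.

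**Figure D1:**
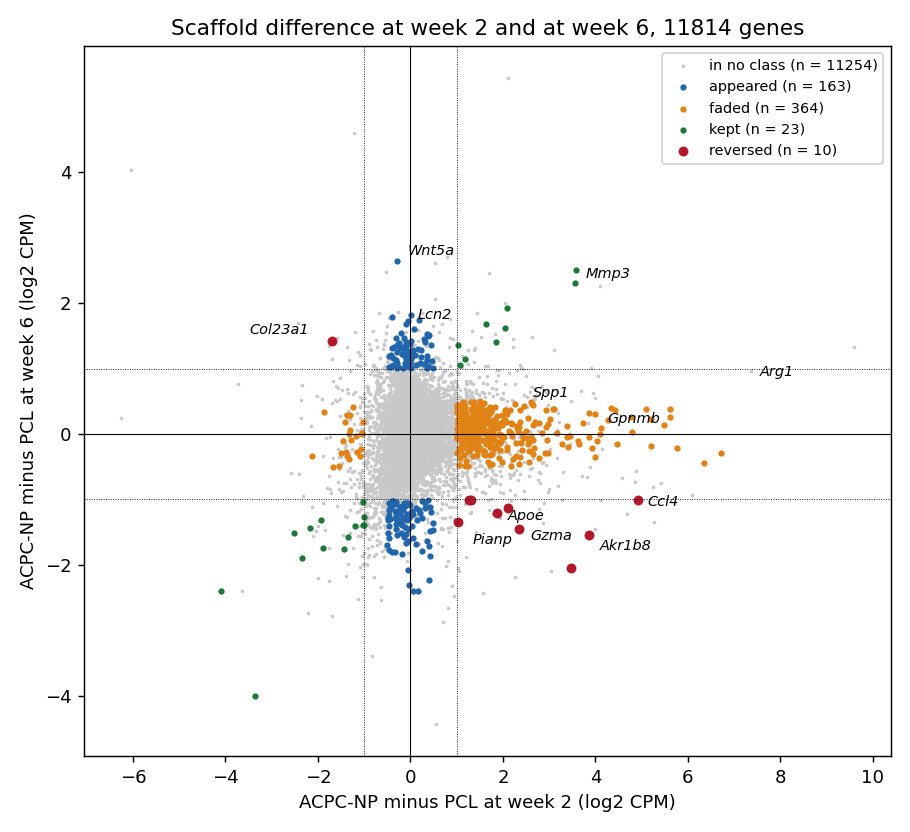
Each point is 1 of 11814 genes, placed by its ACPC-NP minus PCL difference at week 2 (horizontal axis, log2 CPM) and at week 6 (vertical axis, log2 CPM); dotted lines mark a 2-fold difference and colours the 4 classes. The 364 faded genes lie along the horizontal axis, 341 of them to the right, and 9 of the 10 reversed genes lie at the lower right.

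The 10 reversed genes held chemokines and cytokines of immune cells. Each had all 3 ACPC-NP libraries on one side of all 3 PCL libraries at week 2 and on the other side at week 6. That is how the class was defined, so it adds no support. Ccl4, a chemokine that draws monocytes, T cells and NK cells, stood at 8.66, 42.6 and 207 CPM around ACPC-NP and at 2.07, 3.68 and 2.71 around PCL at week 2. At week 6 it stood at 3.12, 1.94 and 6.04 around ACPC-NP and at 6.08, 7.88 and 8.36 around PCL. The difference went from 4.93 ± 0.85 to -1.02 ± 0.76, an interaction of -5.95 ± 1.12 that was -4.17 without replicate 3 of ACPC-NP week 2. That replicate held the most Ccl4, but the other replicates of its group were above PCL too.

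Ccl22, which attracts regulatory and type 2 helper T cells through the receptor Ccr4, was lower in level and reversed in the same way. It stood at 5.2, 4.42 and 10.2 CPM around ACPC-NP and 0.345, 1.74 and 2.46 around PCL at week 2, and at 1.67, 0.767 and 3.18 and 4.08, 4.67 and 3.44 at week 6, with differences of 2.12 ± 0.64 and -1.13 ± 0.63. Tnfsf9, the ligand of the costimulatory receptor 4-1BB on T cells, stood at 6.34, 7.06 and 15.8 CPM against 3.1, 4.95 and 4.08 at week 2 and at 3.76, 1.99 and 6.77 against 8.7, 8.31 and 7.98 at week 6. In both genes ACPC-NP replicate 3 came nearest to PCL at week 6. Lif, a cytokine of the interleukin 6 family, was sparse, at 1.65, 2.01 and 3.65 CPM against 0.766, 1.19 and 0.958 at week 2 and 0.94, 1.35 and 0.937 against 2.25, 2.14 and 2.16 at week 6.

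Apoe, the lipid carrier that macrophages secrete, was the most abundant reversed gene. Its level was 1085, 1829 and 4275 CPM around ACPC-NP and 362, 769 and 841 around PCL at week 2, and 186, 331 and 628 against 1161, 687 and 800.0 at week 6. The groups did not overlap at either week, as the class requires. The difference went from 1.87 ± 0.51 to -1.21 ± 0.50, with an interaction of -3.07 ± 0.72, or -2.34 without replicate 3. Akr1b8, an aldo-keto reductase that detoxifies reactive aldehydes, stood at 29.1, 74.6 and 518 against 7.97, 15.4 and 19.6 CPM at week 2 and 11.4, 7.76 and 15.3 against 45.2, 33.6 and 22.0 at week 6. Its interaction of -5.40 ± 1.14 was -3.38 without replicate 3.

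Pianp, a ligand of the inhibitory receptor PILR-alpha, was the reversed gene least touched by the library that stood apart. It stood at 3.66, 3.71 and 3.2 CPM around ACPC-NP and 1.42, 2.22 and 1.54 around PCL at week 2, and at 1.32, 1.13 and 1.67 and 4.0, 3.13 and 3.35 at week 6. Its interaction was -2.38 ± 0.48 with all libraries and -2.41 without replicate 3. Gzma, a granzyme of cytotoxic cells, had an interaction of -3.80 ± 0.65 at levels of 0.984, 1.74 and 3.71 against 0.383, 0.554 and 0.291 CPM at week 2 and 1.03, 1.08 and 0.52 against 2.25, 1.78 and 3.23 at week 6. Kctd4 had 0.551, 0.868 and 5.89 against 0.192, 0.238 and 0.208 and then 0.0854, 0.0903 and 0.208 against 0.612, 0.356 and 0.637. The single gene reversed in the other direction, Col23a1, a transmembrane collagen, had 0.236, 0.237 and 0.0561 against 0.728, 0.673 and 0.416 and then 0.47, 1.76 and 0.52 against 0.367, 0.396 and 0.255. Gzma, Kctd4, Lif and Col23a1 lie under the level set for naming, a mean log2 CPM of 1, and are named to complete the 10, chosen after their values were seen. The interaction of CaP against PCL, which shares the PCL libraries, was -1.33 ± 1.07 for Ccl4, -1.27 ± 0.88 for Ccl22, -1.97 ± 0.64 for Gzma, -0.24 ± 0.70 for Apoe and -0.37 ± 0.46 for Pianp.

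**Figure D2:**
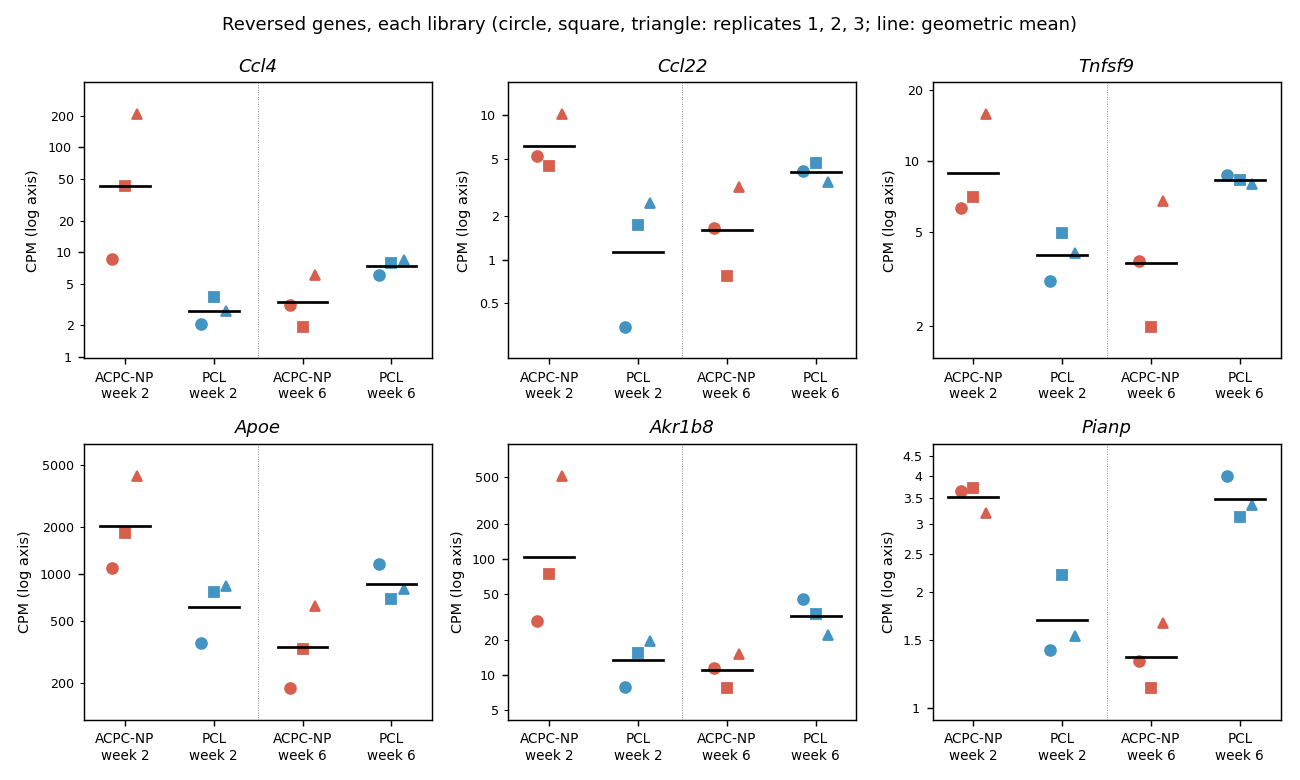
The 6 reversed genes above the level set for naming, with CPM in each library on a log axis that differs between panels; symbols are the 3 libraries of each group and lines are geometric means. In each panel the ACPC-NP libraries lie above the PCL libraries at week 2 and below them at week 6, as the class requires.

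The faded genes were led by chemokines and by genes of activated macrophages. Each gene was read in every library, since ACPC-NP week 2 replicate 3 carried the highest levels. Cxcl3, a neutrophil chemokine, stood at 19.7, 149 and 1402 CPM around ACPC-NP at week 2 against 2.53, 7.64 and 4.79 around PCL, and at 5.94, 3.57 and 7.86 against 8.82, 5.3 and 6.96 at week 6. All 3 ACPC-NP libraries were above all 3 PCL libraries at week 2, and the groups overlapped at week 6. The faded class requires both. The interaction was -7.00 ± 1.45 (edgeR unadjusted p = 0.00023) and -4.34 without replicate 3. Ccl12, a monocyte chemokine, stood at 2.72, 13.2 and 67.7 against 0.23, 0.238 and 0.541 CPM and then at 0.256, 0.181 and 1.41 against 0.49, 0.356 and 1.61. It was sparse in these libraries outside ACPC-NP week 2, so its PCL and week 6 levels rest on few reads. Csf1, the growth factor of macrophages, and F3, tissue factor, which starts coagulation, had interactions of -3.61 ± 0.89 and -4.98 ± 1.21, or -2.17 and -2.54 without replicate 3.

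Of the 19 chemokine genes tested 16 had an interaction below 0, 12 of them at an unadjusted p under 0.05 in edgeR, where the share over all genes is 9.37%. The median difference of the list was 2.45 at week 2 and -0.38 at week 6, and the median interaction was -2.62, or -1.93 without replicate 3, beside -0.05 and -0.00 over all genes. EdgeR called none of them at an adjusted p under 0.05, DESeq2 called 10 and voom 11. Ccl3, Ccl7 and Cxcl1 lay between faded and reversed. Cxcl1 stood at 73.3, 204 and 2514 CPM against 27.8, 85.5 and 62.7 at week 2, overlapping in replicate 1, and at 55.4, 27.7 and 51.5 against 174, 89.7 and 106 at week 6, with every ACPC-NP library lower.

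Ccl3, a monocyte chemokine, had differences of 5.42 ± 1.13 at week 2 and -0.75 ± 0.94 at week 6, and Ccl7 had 2.74 ± 0.67 and -1.29 ± 0.64. Without replicate 3 the week 2 differences were 2.40 and 1.30. At week 6 Ccl3 stood at 106, 60.5 and 87.9 CPM around ACPC-NP against 205, 107 and 116 around PCL, and in both genes every PCL library was then the higher.

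The inflammatory macrophage list rested more on replicate 3. All 18 of its tested members had an interaction below 0, 12 at an unadjusted p under 0.05, and its median difference went from 3.37 to -0.31. The median interaction of -3.72 became -1.57 without replicate 3. EdgeR called none at an adjusted p under 0.05, while DESeq2 and voom each called 6 below 0. Over all genes the shares below 0 are 9.37% at an unadjusted p under 0.05, 0.770% by DESeq2 and 8.15% by voom. Il1a, an alarmin form of interleukin 1, stood at 40.7, 145 and 1441 CPM against 10.3, 22.0 and 10.8 at week 2 and 23.2, 12.6 and 18.3 against 40.4, 19.6 and 35.2 at week 6. Il23a, a subunit of interleukin 23, stood at 7.01, 32.6 and 731 against 1.15, 8.32 and 1.83 and then at 2.48, 2.21 and 2.5 against 5.59, 3.17 and 4.92. For Il1a the scaffolds were apart at week 2 and overlapped at week 6, and for Il23a they overlapped at week 2 and were apart at week 6.

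Among the classic cytokines of this list that are named here, replicate 3 made up much of the difference. The cytokine gene Tnf is listed at 0 in every library and was not tested. Il1b, the main secreted interleukin 1, stood at 554, 1095 and 9503 CPM around ACPC-NP and 247, 575 and 414 around PCL at week 2, and its interaction of -3.55 ± 1.12 was -1.35 without that library. Il6 had an interaction of -4.40 ± 1.33, or -1.72 without it, and Nos2, which makes nitric oxide, -3.43 ± 1.19, or -1.22. Irg1, the enzyme of itaconate synthesis in activated macrophages, stood at 17.9, 95.2 and 802 against 4.45, 8.28 and 5.87 and then 25.8, 15.4 and 16.4 against 17.2, 10.8 and 16.2, a faded gene in which all ACPC-NP libraries were above PCL at week 2.

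Most anti-inflammatory genes of macrophages followed the same course as the inflammatory ones. Of the 15 tested genes of alternatively activated macrophages 13 had an interaction below 0, 11 at an unadjusted p under 0.05 (9.37% over all genes). The other 2, Pparg and Cd163, were above 0 with an unadjusted p under 0.05. Cd163, named after its values were seen, was an appeared gene, with differences of -0.10 at week 2 and 1.30 at week 6. Its interaction was 1.40 ± 0.64, or 1.26 without replicate 3. The median difference went from 2.12 at week 2 to 0.05 at week 6. The median interaction was -2.51, or -1.25 without replicate 3. EdgeR called none at an adjusted p under 0.05, DESeq2 called 7 below 0 and 1 above, and voom 5 below and 2 above.

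Arg1, the arginase of these cells, stood at 21.1, 176 and 1540 CPM around ACPC-NP and 1.46, 5.58 and 3.5 around PCL at week 2, with no overlap, and at 4.4, 6.91 and 22.2 against 6.16, 2.65 and 8.28 at week 6, with overlap. Its difference went from 7.36 ± 1.35 to 0.97 ± 1.08. Cd274, which encodes the T cell inhibiting ligand PD-L1, was at 6.65, 38.9 and 322 against 2.38, 3.05 and 2.79 and then 4.57, 4.2 and 6.04 against 4.98, 4.43 and 4.08, an interaction of -5.35 ± 1.24, or -2.90 without replicate 3. Il1rn stood at 282, 1061 and 6396 against 106, 166 and 131 and then 173, 147 and 256 against 230.2, 107 and 160.2. In all of them every ACPC-NP library was above every PCL library at week 2.

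Il10, the anti-inflammatory cytokine, was sparse outside replicate 3, at 1.38, 5.6 and 44.8 against 0.575, 1.03 and 0.708 CPM at week 2. Mrc1, the mannose receptor, overlapped between the scaffolds at week 2, at 63.8, 116 and 266 against 73.4, 46.2 and 76.6, and had an interaction of -1.30 ± 0.55, or -0.56 without replicate 3. Pparg, a lipid-sensing nuclear receptor, had the opposite direction, at 4.53, 4.18 and 4.04 against 6.4, 3.92 and 5.33 at week 2 and 6.41, 9.39 and 9.11 against 5.27, 4.43 and 3.78 at week 6, with an interaction of 1.18 ± 0.30. Every ACPC-NP library was above every PCL library for Pparg at week 6.

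Among further genes of macrophages and osteoclasts, the weight of replicate 3 differed from gene to gene. Gpnmb stood at 1064, 2075 and 10021 CPM against 173, 324 and 267 at week 2 and at 247, 264 and 698 against 616, 272 and 320.1 at week 6. Its difference of 4.11 ± 0.82 at week 2 was 2.61 without replicate 3. Trem2 was alike in all 3 ACPC-NP libraries, at 44.3, 37.6 and 37.3 against 9.39, 16.1 and 19.4, and then stood at 16.7, 9.66 and 41.3 against 36.5, 17.7 and 23.6. The general macrophage markers Cd68 and Ctss had interactions of -1.04 ± 0.49 and -1.23 ± 0.38, or -0.52 and -0.75 without replicate 3. Over the 18 tested monocyte and macrophage genes the median difference was 1.01 at week 2 and 0.30 at week 6, with 8 faded genes among them. Without replicate 3 the week 2 median was 0.55 and the median interaction of -0.78 was -0.24.

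Spp1, osteopontin, which macrophages and osteoclasts secrete and which binds mineral, stood at 2773, 3114 and 2239 CPM around ACPC-NP and 260.1, 745 and 482 around PCL at week 2. At week 6 it stood at 454, 480.0 and 1124 and 797, 417 and 308. Replicate 3 was the lowest of its group here, and the interaction of -2.02 ± 0.83 was -2.11 without it. Ctsk, the collagen-cutting protease of osteoclasts, stood at 599, 289.8 and 448 against 91.1, 199.8 and 76.2 and then 45.5, 85.5 and 169 against 99.98, 91.8 and 57.0, with an interaction of -1.60 ± 0.87, or -1.56. Acp5, the tartrate-resistant phosphatase of osteoclasts, stood at 319, 216 and 392 against 147, 165 and 120.1 and then 98.9, 105 and 169 against 118, 148 and 133. In the 3 genes the scaffolds were apart at week 2 in every library and overlapped at week 6.

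Over the 13 tested osteoclast genes 11 had an interaction below 0, 4 at an unadjusted p under 0.05, and the median difference went from 1.03 to 0.27. Without replicate 3 the week 2 median was 0.48, and the median interaction of -0.80 was -0.40. EdgeR called none at an adjusted p under 0.05 and DESeq2 none, and voom called 1 above 0 and 2 below. The shares over all genes are 9.37% below 0 at an unadjusted p under 0.05, and 8.19% above and 8.15% below by voom. Nfatc1, the transcription factor of osteoclast formation, had an interaction of -0.51 ± 0.17 and Clcn7, the chloride channel of the resorbing membrane, -0.97 ± 0.35, or -0.39 and -0.40 without replicate 3. Tnfrsf11b, the decoy receptor osteoprotegerin that blocks osteoclast formation, was above PCL at both weeks, by 1.62 ± 0.61 and 1.05 ± 0.59, though the libraries overlapped at week 6. Its interaction of -0.57 ± 0.84 was -1.47 without ACPC-NP week 6 replicate 3. Its ligand Tnfsf11 is listed at 0 in every library.

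Genes of glucose use and the hypoxia response were a further group with many faded members. Of the 28 tested genes of glycolysis and the hypoxia response 14 were in the faded class, 26 had an interaction below 0 and 16 of those had an unadjusted p under 0.05. The shares over all genes are 3.08% for the faded class and 9.37% for an unadjusted p under 0.05 below 0. The median difference was 1.56 at week 2 and 0.13 at week 6. This group leaned on replicate 3, without which its median interaction of -1.44 was -0.43. EdgeR called none at an adjusted p under 0.05, DESeq2 called 3 and voom 1.

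Slc2a1 stood at 112, 303 and 2506 CPM against 39.8, 89.1 and 64.6 at week 2 and 76.7, 46.3 and 93.6 against 101, 66.5 and 84.5 at week 6. Its interaction of -4.13 ± 1.14 was -1.88 without replicate 3, and the other ACPC-NP libraries were still above PCL. Ero1a, an oxidase of protein folding, P4ha1, which hydroxylates collagen, and Bnip3, a mediator of mitophagy, had interactions of -3.16 ± 0.99, -3.42 ± 1.07 and -3.42 ± 1.22, which were -0.85, -1.34 and -1.57 without replicate 3. Vegfa, the vascular growth factor, overlapped at week 2, at 123, 152 and 976 against 84.1, 170.4 and 114, and its difference of 1.76 ± 0.65 was 0.16 without replicate 3. Fth1, ferritin heavy chain, which stores iron, stood at 1658, 4569 and 49702 against 1478, 1347 and 1379 and then 1664, 1653 and 2060 against 1634, 1403 and 1756, and replicate 3 was by far its highest library, without which its interaction of -3.57 ± 1.09 was -0.96.

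Stress and signalling genes had interactions in the same direction, with medians smaller in size than those of the chemokine and inflammatory macrophage lists. The interaction was below 0 in 13 of 13 tested NF-kB subunits and feedback genes, 10 at an unadjusted p under 0.05, and in 24 of 25 immediate early genes, 14 at an unadjusted p under 0.05. The share over all genes below 0 at an unadjusted p under 0.05 is 9.37%. Their median interactions were -1.73 and -1.58, or -0.69 and -0.54 without replicate 3. Their week 2 medians of 0.77 and 0.98 were 0.002 and 0.03 without replicate 3, beside week 6 medians of -0.63 and -0.48. The lists held 0 and 1 faded genes. EdgeR and DESeq2 called none of either list at an adjusted p under 0.05. Voom called 4 and 5 below 0, where its share over all genes is 8.15%. Nfkb1, the p50 subunit, overlapped at week 2, at 343, 387 and 713 against 323, 484 and 378 CPM, and was lower around ACPC-NP in every library at week 6, at 434, 330.2 and 375 against 578, 673 and 840.0. Of 20 tested genes of oxidative stress defence 17 were below 0, with 5 faded genes. The median interaction of -1.27 was -0.24 without replicate 3, and the week 2 median of 1.09 was 0.14.

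**Figure D3:**
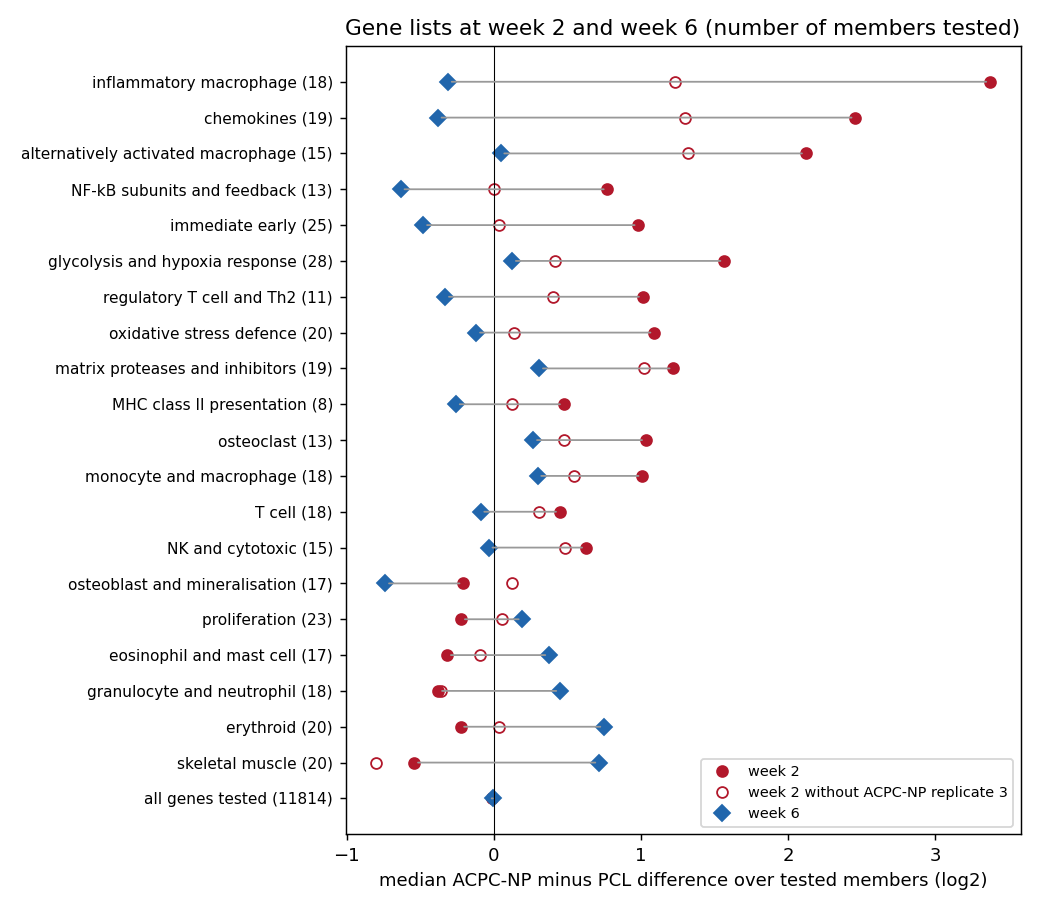
Median ACPC-NP minus PCL difference (horizontal axis, log2) over the tested members of 20 gene lists and over all genes, at week 2 with all libraries (filled circles), at week 2 without ACPC-NP replicate 3 (open circles) and at week 6 (diamonds). The inflammatory macrophage list goes from 3.37 at week 2 to -0.31 at week 6, the erythroid list from -0.23 to 0.75, and all genes stay at -0.01.

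The faded difference was mostly a difference in the ACPC-NP libraries over time. Of the 341 genes higher around ACPC-NP at week 2, 325 had a larger week 6 minus week 2 difference around ACPC-NP than around PCL, with medians of -1.31 and 0.17. These share libraries with the values that chose the class, so the count is a description. Only 129 of the 341 were still at least 2-fold higher at week 2 without replicate 3. Around ACPC-NP, edgeR called 1 gene between the weeks (0.00846%), with 2340 at an unadjusted p under 0.05, against 785 by DESeq2 (6.64%) and 1350 by voom (11.4%). Around PCL it called 0 genes (0%), with 1166 at an unadjusted p under 0.05, against 36 by DESeq2 (0.305%) and 1739 by voom (14.7%), and 52 by edgeR without PCL week 6 replicate 1.

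The 1 gene called was Gal, which encodes the neuropeptide galanin. It stood at 10.4, 6.11 and 16.6 CPM around ACPC-NP at week 2 and at 0.684, 0.406 and 0.625 at week 6, against 0.805, 1.31 and 1.04 and then 0.653, 0.792 and 0.127 around PCL. Gal fell by 4.25 ± 0.56 around ACPC-NP on the log2 scale (edgeR adjusted p = 0.0221), and was lower at week 6 in every one of these libraries. Its week 6 minus week 2 difference around PCL was -0.99 ± 0.55, and the interaction of -3.27 ± 0.77 did not pass. The call was lost with the 12 libraries fitted alone, and edgeR called 0 genes around ACPC-NP when ACPC-NP week 2 replicate 3, any ACPC-NP week 6 library or PCL week 2 replicate 3 was left out. Leaving out ACPC-NP week 2 replicate 1 gave 882, ACPC-NP week 2 replicate 2 gave 4 and PCL week 6 replicate 1 gave 8.

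**Figure D4:**
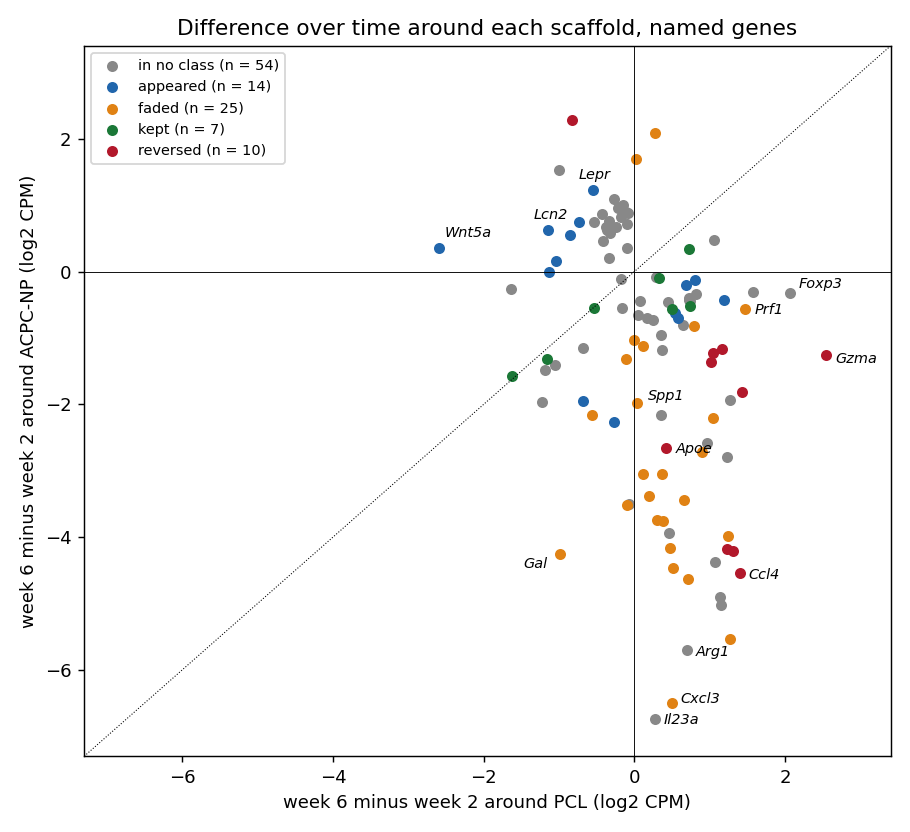
Week 6 minus week 2 difference around PCL (horizontal axis, log2 CPM) and around ACPC-NP (vertical axis, log2 CPM). Points are the genes named in the text other than Cd163, coloured by class. On the dotted line both scaffolds differ equally over time. Genes with an interaction below 0 lie under the dotted line; Arg1 and Cxcl3 lie far down, Foxp3 and Gzma to the right and Wnt5a to the left.

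In Foxp3, Gzma and Prf1, genes of regulatory and cytotoxic lymphocytes, the larger difference over time was around PCL. Foxp3 had the smallest p of the interactions below 0 among genes above the level set for naming (edgeR unadjusted p = 4.9e-05, adjusted p = 0.278). It stood at 2.44, 3.27 and 4.72 CPM around ACPC-NP and 0.69, 0.99 and 1.08 around PCL at week 2, and at 2.95, 2.26 and 3.07 against 3.35, 3.76 and 4.5 at week 6. The scaffolds did not overlap at either week, and the order was opposite. The ACPC-NP level differed by -0.33 ± 0.29 between the weeks and the PCL level by 2.07 ± 0.31. The interaction of -2.40 ± 0.43 was -2.09 without replicate 3, and its week 6 difference of -0.49 was too small for the reversed class.

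Il2ra, the interleukin 2 receptor chain that regulatory and activated T cells carry, stood at 3.19, 5.6 and 10.8 CPM against 0.881, 2.14 and 1.04 at week 2 and 1.03, 1.62 and 2.5 against 2.53, 3.36 and 3.91 at week 6, with no overlap at either week, by a narrow margin at week 6. Il2ra differed over time around both scaffolds, with every ACPC-NP library lower at week 6 than at week 2 and every PCL library higher. Its interaction was -3.20 ± 0.70, or -2.60 without replicate 3. Over the 11 tested genes of regulatory and type 2 helper T cells 9 were below 0, 4 at an unadjusted p under 0.05, with a median interaction of -1.41, or -0.98 without replicate 3. The median week 6 minus week 2 difference of the list was 0.60 around PCL and -0.47 around ACPC-NP. EdgeR called none of the list at an adjusted p under 0.05, DESeq2 called 2 and voom 6. Over all genes the shares below 0 are 9.37% at an unadjusted p under 0.05, 0.770% by DESeq2 and 8.15% by voom. Icos, a costimulatory receptor, and Gata3, the transcription factor of type 2 helper cells, had interactions of -1.55 ± 0.61 and -1.15 ± 0.50, or -1.02 and -1.13 without replicate 3. The 18 tested general T cell genes had a median interaction of -0.59, with 17 below 0 but 1 at an unadjusted p under 0.05.

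Prf1, perforin, was a faded gene in which PCL reached the ACPC-NP level. It stood at 6.42, 7.73 and 18.3 CPM around ACPC-NP and 2.99, 3.52 and 2.5 around PCL at week 2, and at 5.64, 8.67 and 7.6 and 8.45, 6.21 and 10.4 at week 6. The week 6 minus week 2 difference was 1.47 ± 0.35 around PCL and -0.56 ± 0.34 around ACPC-NP. For Gzma these values were 2.54 ± 0.47 and -1.26 ± 0.45. Ncr1, the NK cell receptor NKp46, had an interaction of -3.26 ± 1.01, or -1.24 without replicate 3. Over the 15 tested genes of NK and cytotoxic cells 11 were below 0, 5 at an unadjusted p under 0.05 (9.37% over all genes). The median week 6 minus week 2 difference was 0.61 around PCL and 0.01 around ACPC-NP.

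Of the 8 class II antigen presentation genes tested 6 were above PCL at week 2 and 7 below it at week 6. The week 2 median of 0.47 was 0.12 without ACPC-NP week 2 replicate 3, and the median interaction of -1.04 was -0.62. RT1-Da, a chain of the rat class II molecule, stood at 325, 335 and 708 CPM against 239, 227 and 262 at week 2 and 245, 247 and 294 against 405, 266 and 467 at week 6, apart at week 2 and overlapping at week 6 in PCL replicate 2. Its interaction was -1.44 ± 0.40, that of RT1-Db1 -1.18 ± 0.35, and that of Cd74, the chaperone of class II molecules, -0.89 ± 0.36. Without replicate 3 they were -0.95, -0.81 and -0.49. RT1 genes have close paralogs, so their counts may be split between copies. The interaction was below 0 in 5 of the 8, all 5 at an unadjusted p under 0.05 (9.37% over all genes), and above 0 in the other 3.

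Red cell genes had the opposite direction. All 20 tested erythroid genes had an interaction above 0, 16 at an unadjusted p under 0.05, where the share over all genes is 5.60%. The median difference was -0.23 at week 2 and 0.75 at week 6, with a median interaction of 1.00, or 0.76 without replicate 3. EdgeR and DESeq2 called none at an adjusted p under 0.05 and voom called 16, where its share above 0 over all genes is 8.19%. The summed level of the list was 35878 to 46424 CPM around ACPC-NP and 31854 to 64880 around PCL at week 2, and 67739 to 90303 against 32056 to 50718 at week 6. The week 6 ranges did not overlap. Red blood cells were lysed in the preparation, and the part that lysis played in these levels was not tested. Gata1, a defining erythroid transcription factor, is listed at 0 in every library, while Klf1 was at 269 to 302 CPM around ACPC-NP and 158 to 214 around PCL at week 6.

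Fech, which completes haem, stood at 702, 639 and 434 CPM against 838, 502 and 771 at week 2 and 1046, 1109 and 856 against 620.3, 434 and 618 at week 6. Bpgm, the red cell enzyme that makes bisphosphoglycerate, stood at 958, 1001 and 832 against 1263, 654 and 1071 and then 1659, 1485 and 1284 against 899.7, 577 and 851. Both overlapped at week 2 and were higher around ACPC-NP in every library at week 6. Hbb-b1, a beta globin with close copies between which reads may be split, had an interaction of 1.03 ± 0.33, and the carbonic anhydrases Car1 and Car2 had 1.49 ± 0.51 and 1.04 ± 0.36.

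Of the 18 granulocyte genes tested 16 were below PCL at week 2 and 18 above it at week 6. They had a median difference of -0.38 at week 2 and 0.45 at week 6, with 16 interactions above 0. Of the list 5 were above 0 at an unadjusted p under 0.05, where the share over all genes is 5.60%. Voom called 16 of the list, where its share above 0 is 8.19%, and edgeR and DESeq2 called none. Camp, the antimicrobial cathelicidin of neutrophil granules, stood at 1521, 1500 and 1510 CPM against 2073, 1696 and 2091 at week 2, with every ACPC-NP library lower, and at 3063, 2922 and 2365 against 2548, 1369 and 1616 at week 6, with overlap through PCL replicate 1. Cd177, a neutrophil surface protein, and Padi4, which citrullinates histones, had interactions of 1.01 ± 0.40 and 0.92 ± 0.37, and Mmp8, the neutrophil collagenase, 0.82 ± 0.37. The summed granulocyte level at week 6 was 31926 to 47840 CPM around ACPC-NP and 17844 to 44620 around PCL, so the scaffolds overlapped.

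Among 17 tested eosinophil and mast cell genes 12 were above 0, 6 at an unadjusted p under 0.05, with a median interaction of 0.89, or 0.84 without replicate 3. EdgeR and DESeq2 called none at an adjusted p under 0.05 and voom 6. Shares over all genes above 0 are 5.60% at an unadjusted p under 0.05 and 8.19% by voom. Mcpt8, a basophil protease, stood at 63.6, 61.4 and 79.7 CPM against 94.8, 123 and 129 at week 2 and 94.2, 143 and 135 against 136, 57.6 and 64.9 at week 6. Ms4a2 and Fcer1a, chains of the IgE receptor, had interactions of 1.00 ± 0.34 and 1.29 ± 0.41, and Hdc, the enzyme that makes histamine, 1.15 ± 0.42. For Mcpt8, Ms4a2, Fcer1a and Hdc the week 2 difference was from -0.98 to -0.67. In 4 mast cell proteases of the list the values went the other way. Tpsb2, Tpsab1, Cpa3 and Mcpt2, named after their values were seen, had interactions of -1.87 ± 1.11, -1.12 ± 1.00, -0.70 ± 0.64 and -0.39 ± 0.78, with week 6 differences of -1.94, -1.31, -0.67 and -0.50, and Mcpt2 turned sign without ACPC-NP week 2 replicate 1. None of the 4 had an unadjusted p under 0.05.

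Skeletal muscle genes are a sign of tissue beside the bone. All 20 tested muscle genes of a list of 25 had an interaction above 0, 1 at an unadjusted p under 0.05 (5.60% over all genes), with a median of 1.22. Without ACPC-NP week 6 replicate 3 that median was -0.40 and 15 of the 20 were below 0. Their summed level was 41.1 to 115 CPM around ACPC-NP and 101 to 131 around PCL at week 2, and 110.1 to 926 against 170.3 to 313 at week 6. Ckm, the muscle creatine kinase, reached 90.0 CPM and Acta1 276 CPM in the highest ACPC-NP library at week 6, while Myh4 was at 0 in the lowest library of each of 2 groups. The muscle level was highest in ACPC-NP week 6 replicate 3, which was the lowest of its group in the erythroid and granulocyte lists. The part of muscle in the other results was not tested.

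**Figure D5:**
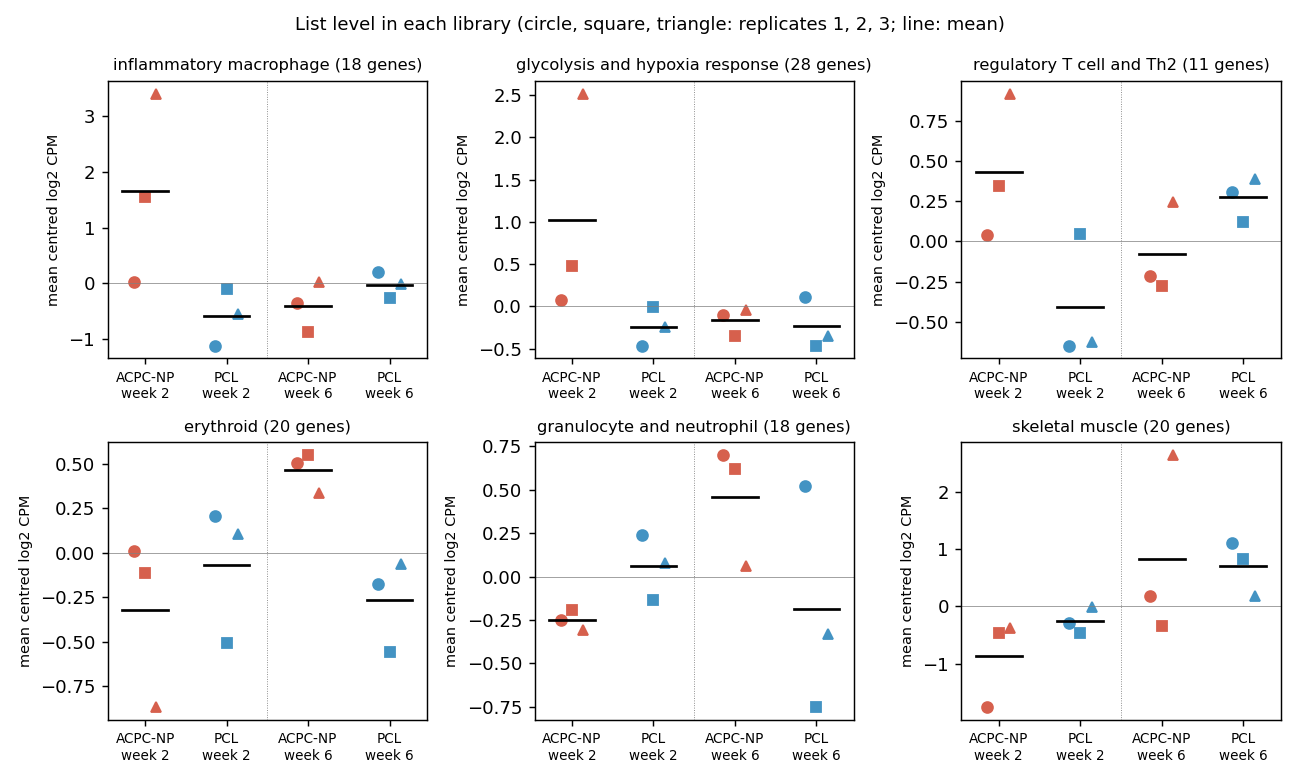
Mean over the tested members of 6 lists of log2 CPM centred per gene, in each of the 12 libraries; symbols are the 3 libraries of a group and lines their means. The inflammatory and glycolysis levels are highest in ACPC-NP week 2 replicate 3, the erythroid level of every ACPC-NP library lies above every PCL library at week 6, and the muscle level is highest in ACPC-NP week 6 replicate 3.

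The single genes with the smallest p among interactions above 0 were of mixed function. Tusc2, a mitochondrial protein first described as a tumour suppressor candidate, stood at 35.7, 33.6 and 30.3 CPM against 44.2, 32.7 and 38.2 at week 2 and 43.2, 48.6 and 44.9 against 28.8, 27.6 and 29.8 at week 6, an interaction of 0.87 ± 0.18 (edgeR unadjusted p = 0.00025). B3gnt6, a glycosyltransferase of mucin-type sugars, stood at 2.05, 1.85 and 1.46 against 4.14, 2.06 and 2.37 and then 5.13, 6.82 and 3.64 against 2.2, 1.03 and 1.06, an interaction of 2.53 ± 0.53. March2, a membrane ubiquitin ligase, stood at 214, 194 and 210.0 against 252, 171 and 259 and then 324, 335 and 297 against 204, 148 and 178. In these genes the scaffolds were apart in every library at week 6, with ACPC-NP higher.

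Angpt2, the vessel-destabilising ligand of the receptor Tie2, was lower around ACPC-NP in every library at week 2, at 6.3, 7.14 and 5.89 CPM against 8.32, 9.5 and 12.7, and higher in every library at week 6, at 11.9, 13.3 and 16.3 against 11.5, 7.2 and 6.58. Its interaction was 1.37 ± 0.31. Mccc1, of leucine breakdown, was likewise lower in every library and then higher, at smaller size, from -0.34 ± 0.08 to 0.19 ± 0.08. The genes lower around ACPC-NP at week 2 that faded were few, and the one of smallest p, Slc22a3, an organic cation transporter, had differences of -1.38 ± 0.45 and 0.28 ± 0.42. Drc1, which encodes a part of the motile cilium, followed with -2.14 ± 0.71 and -0.33 ± 0.67, an interaction of 1.81 ± 0.96 that was 0.65 without PCL week 2 replicate 2.

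A further set of genes was alike at week 2 and apart at week 6, 76 higher and 87 lower around ACPC-NP. Of the 76 genes higher at week 6, 35 differed more over time around PCL than around ACPC-NP, and of the 87 lower genes 57 did. Wnt5a, a Wnt ligand that acts without beta-catenin, stood at 4.45, 8.71 and 9.6 CPM against 8.2, 13.3 and 6.5 at week 2 and 7.99, 16.5 and 4.63 against 1.63, 0.713 and 2.29 at week 6. The PCL libraries at week 6 were the low ones, with a week 6 minus week 2 difference of -2.59 ± 0.62 around PCL and 0.36 ± 0.57 around ACPC-NP. The same PCL libraries entered the interaction of CaP against PCL, which was 2.96 ± 0.84 beside 2.95 ± 0.84 for ACPC-NP.

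Lcn2, a siderophore-binding protein of neutrophils and injured tissue, stood at 789, 536 and 1396 CPM against 1182, 1139 and 572 at week 2 and 1623, 1461 and 1107 against 123, 391 and 792 at week 6, where the PCL libraries were spread over a wide range below ACPC-NP. Lepr, the leptin receptor, also carried by marrow stromal cells, stood at 2.05, 2.37 and 1.46 against 2.45, 1.78 and 1.87 and then 4.19, 4.78 and 4.89 against 2.53, 0.95 and 0.679. H1f0, a linker histone of resting cells, stood at 185, 149 and 149.6 against 193, 105 and 183 and then 158, 172 and 155 against 92.9, 65.0 and 60.4. F2rl1, a protease-activated receptor, and Lyplal1, a lysophospholipase-like enzyme, had interactions of 1.20 ± 0.33 and 1.41 ± 0.38.

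Among genes lower around ACPC-NP only at the later week by this sorting, Tgif1, a corepressor in TGF-beta signalling, stood at 74.5, 59.2 and 82.0 CPM against 107, 166 and 166 at week 6 after a difference of 0.25 ± 0.31 at week 2. Itpr3, a calcium channel of the endoplasmic reticulum, stood at 61.8, 73.4 and 86.0 against 98.2, 224 and 157, and Inpp5a, which degrades the ligand of that channel, at 87.1, 69.1 and 95.7 against 128, 177 and 235. Plekhh1 and Tulp4 had interactions of -1.63 ± 0.45 and -1.16 ± 0.39. In all of these the PCL libraries were above every ACPC-NP library at week 6, as the class requires.

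Of the 17 tested genes of osteoblasts and mineralisation 1 was in the faded class, Spp1, described above. The list had a median difference of -0.21 at week 2 and -0.74 at week 6, with 14 interactions below 0 but 1 at an unadjusted p under 0.05 in that direction and 1 above. Without ACPC-NP week 2 replicate 3 the week 2 median was 0.12, and the median interaction of -0.41 was -0.70, with 15 below 0. Bglap, osteocalcin, stood at 413, 339.8 and 173 CPM against 255, 471 and 356 at week 2 and 112, 132 and 173 against 165, 287 and 226 at week 6. Col1a1, the main bone collagen, stood at 20201, 21172 and 7546 against 14804, 23464 and 18272 and then 4373, 5617 and 7484 against 8338, 9855 and 6722. The scaffolds overlapped at both weeks in both genes.

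Alpl, the phosphatase of early mineralisation, was lower around ACPC-NP in every library at week 2, at 91.5, 112 and 67.3 CPM against 121, 142 and 115, and overlapped at week 6, with an interaction of 0.90 ± 0.38. Ibsp, Sp7 and Runx2, a mineral-binding matrix protein and the transcription factors of osteoblast formation, had interactions of -0.74 ± 0.93, -0.36 ± 0.59 and 0.07 ± 0.20, with Runx2 turning sign when ACPC-NP week 6 replicate 2 or PCL week 6 replicate 3 was left out. Mepe and Phex, osteocyte genes of phosphate handling, were in the appeared class, with Phex at 8.3, 9.39 and 1.46 against 5.48, 8.99 and 5.08 and then 0.94, 1.9 and 2.19 against 3.71, 5.66 and 2.84.

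The cartilage genes Sox9 and Acan varied too widely for a statement, with Acan at 73.9, 107 and 41.4 CPM around ACPC-NP and 30.9, 496 and 83.9 around PCL at week 2, and their signs turned under some settings. Bmp2 and Tgfb1, growth factors of bone repair, had interactions of -0.86 ± 0.92 and -0.36 ± 0.27.

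A small group kept its difference at both weeks, 9 genes higher and 14 lower around ACPC-NP. Mmp3, the matrix protease stromelysin 1, stood at 116, 21.9 and 30.9 CPM against 1.23, 7.52 and 5.62 at week 2 and 15.7, 10.8 and 92.2 against 3.59, 10.2 and 10.1 at week 6, differences of 3.56 ± 1.00 and 2.31 ± 0.95. Its relative Mmp10, stromelysin 2, had 3.57 ± 1.02 and 2.51 ± 0.98. Steap4, a metalloreductase, had 1.63 ± 0.53 and 1.68 ± 0.54, and Slc9b2, a sodium-proton exchanger of osteoclasts, 2.09 ± 0.84 and 1.93 ± 0.87. Mt3, a metallothionein, and Tgfb2 kept a difference of 1.61 ± 0.77 and 1.06 ± 0.59 at week 6. The single lower gene above the naming level was Tbx6, a T-box transcription factor, with -1.01 ± 0.36 and -1.39 ± 0.36. ACPC-NP week 6 replicate 3 was the highest week 6 library for each higher gene named here, and without it the week 6 differences were 0.73 for Mmp3, 0.68 for Mmp10, 1.49 for Steap4, 1.18 for Slc9b2, 0.66 for Mt3 and 0.43 for Tgfb2.

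In the promoters, motifs were searched on both strands in the 261 faded genes with a RefSeq promoter that had been higher around ACPC-NP at week 2, and in the 9523 tested genes with one. The AP-1 motif TGANTCA was in 15.3% of the former, in 5.22% of the latter and in 7.33% of all 27457 RefSeq promoters of that length. The NF-kB motif GGGNNTTTC was in 7.66%, 4.55% and 4.52%, and the TATA motif TATAAA in 13.8%, 7.33% and 14.3%. The hypoxia response core ACGTG was in 23.4%, 25.1% and 19.7%. The interferon element GAAANNGAA was in 10.3%, 7.21% and 9.50%, the NFAT motif TGGAAA in 19.5%, 16.5% and 22.4%, the antioxidant core TGACNNNGC in 15.7%, 14.8% and 12.2%, and the cyclic AMP element TGACGTCA in 1.53%, 3.08% and 1.91%. The AP-1 letters can lie within the antioxidant core, and the NF-kB, interferon and NFAT motifs can share bases at their ends. The NF-kB and interferon motifs were first searched with 1 more letter and shortened after those matches had been seen. In that form they were in 4.60% and 4.98% of the faded genes, 1.73% and 3.00% of the tested genes and 1.51% and 3.77% of all RefSeq promoters. A heat shock motif of 3 units was in 0.383%, 0.525% and 0.736%. These are counts of letters in a fixed window, with no test.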

How the data were processed

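Polyadenylated RNA was sequenced from 18 libraries, 3 for each of 3 scaffolds at weeks 2 and 6. Per the submitters' processing notes, the authors used bcl2fastq 2.20.0, STAR 2.7.9a, featureCounts and Subread 2.0.1 with build Rnor_6.0, while the sources used here give neither annotation nor strand setting. The authors deposited whole-number counts of reads per gene symbol, and their separate table of normalised values was not used. Without strand, reads of overlapping genes cannot be told apart. Lists were matched by symbol, 611 of 661 entries directly and 8 by an older symbol, and 42 had no match.

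Counts were tested with edgeR 4.0.16 in R 4.3.3 (filterByExpr with a minimum count of 10 and a minimum total of 15, TMM, robust quasi-likelihood fit, 1 mean per group over all 18 libraries). P-values were adjusted by Benjamini-Hochberg over 11814 of 17337 genes within each of 5 comparisons, with a threshold of 0.05. CPM values use TMM-scaled library sizes. The alternatives were DESeq2 1.42.0, limma 3.58.1 (voom with weights per library), scaling by DESeq2's factors, a fit of all genes regardless of count, a fit of the 12 libraries alone, the replicate number as a model term and each library left out in turn. No pair of libraries within a group agreed within sampling noise, with a lowest chi-square per degree of freedom of 30.5. The edgeR, DESeq2 and voom fits were tested on simulated counts. The simulation held no library that stands apart, so it cannot say which tool's count of calls holds for these data.

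The comparison, the 33 gene lists and the panel of genes were chosen with earlier results of these data known. Named genes have a mean log2 CPM of at least 1 and are the 5 of smallest unadjusted p per direction, up to 8 per class and direction, the panel, and up to 5 per list, from which the text takes those it describes. The level was not applied to the panel and the lists, so Gata3 and Bmp2 are named below it. Classes were set by fixed sizes and by overlap. Promoters were matched by symbol to a RefSeq table of build GRCr8, used for nothing else but names. The NF-kB and interferon motifs were shortened by 1 letter after their matches had been seen, and both forms are given. No sequence or coordinate comes from the build of the counts.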

Additional observations from a re-analysis of the deposited data

How the results depend on the processing

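The number of genes called moved with the tool and with single libraries. For the interaction it was 0 in edgeR, 137 by DESeq2, 1930 by voom with quality weights, and 0 to 148 with 1 library left out. For ACPC-NP minus PCL it was 0, 634, 281 and 0 to 877 at week 2, and 0, 901, 4042 and 0 to 1787 at week 6. For week 6 minus week 2 it was 1, 785, 1350 and 0 to 882 around ACPC-NP, where the 12 libraries alone gave 0, and 0, 36, 1739 and 0 to 52 around PCL. DESeq2 size factors and no low-count filter left every one of these 5 edgeR counts as it was. Reversed genes numbered 9 to 38 and faded genes 186 to 644 with 1 library left out, and 2 and 187 with a difference of 1.5 in place of 1 on the log2 scale. With 1 library left out, no overlap has to hold among fewer libraries, so those class counts are not on equal terms with the full ones. The cause of these differences between settings was not tested. With the replicate number as a model term (replicate block) the count was 427 for ACPC-NP minus PCL at week 6, 0 for week 6 minus week 2 around ACPC-NP, 1 around PCL, and 0 for the interaction and for week 2. Same-numbered libraries do not share an origin by the labels, and the correlation of their deviations ran from -0.30 to 0.36, with no pair of groups in which every library correlated best with its own number. The interaction turned sign for Runx2 (-0.034 to 0.266 with 1 library left out), Sox9 (-2.15 by voom, -0.86 to 2.04 with 1 left out) and Acan (-1.97 by voom, -0.44 to 2.77 with 1 left out) and Mcpt2 (-0.99 to 0.41 with 1 left out), 4 of the 103 genes whose interaction was recomputed. Levels near 1 CPM rest on few reads.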

Other observations

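Several further gene lists had median differences nearer to 0 at week 6 than at week 2. The 17 tested genes of coagulation and fibrinolysis had a median difference of 0.87 at week 2 and 0.36 at week 6, with 5 faded genes, and the week 2 value was 0.43 without ACPC-NP week 2 replicate 3. The 19 matrix proteases and inhibitors had 1.22 at week 2 and 0.31 at week 6, with 5 faded and 2 kept. Their median interaction of -1.07 was -0.16 without ACPC-NP week 2 replicate 1 and -0.49 without replicate 3. The 22 interferon response genes had 0.50 at week 2 and 0.05 at week 6, the former 0.15 without replicate 3. For the 19 heat shock and chaperone genes the median interaction was -0.31, or 0.01 without ACPC-NP week 2 replicate 3.

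Structural and stromal lists had median interactions that turned on ACPC-NP week 6 replicate 3. These were -0.22 for 11 collagens, 0.01 for 19 endothelial genes and 0.05 for 16 genes of stroma and marrow fat, and -1.62, -1.36 and -1.07 without that library. The 20 genes of TGF-beta and BMP signalling had -0.55, or -0.98 without it, and the 14 Schwann cell and nerve genes -0.42, or -1.05. The 15 cartilage genes turned on another library, with a median difference of -1.35 at week 2 and -0.44 at week 6, where the week 2 value was 1.45 without PCL week 2 replicate 2. The median interaction was -0.28 for 17 Wnt genes and 0.11 for 26 genes of oxidative phosphorylation. The 19 B cell genes had -0.46 at week 2 and -0.64 at week 6, with a median interaction of -0.22 and 15 below 0. For 12 megakaryocyte and platelet genes the median interaction was 0.72, or 0.64 without ACPC-NP week 2 replicate 3. Of these, 10 were above 0, with 0 at an unadjusted p under 0.05 in edgeR. The other 2 were below 0, both at an unadjusted p under 0.05, where the share over all genes is 9.37%. For 23 proliferation genes, of which 22 were above 0, it was 0.43, or 0.17 without ACPC-NP week 2 replicate 3.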
